A study of Mus musculus with 22 samples.

Results

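The genes described are 7 members of the Rgs family, the regulators of G protein signalling: Rgs1, Rgs2, Rgs3, Rgs10, Rgs14, Rgs16 and Rgs19. They were chosen by name from 55291 gene names, and all 7 were listed in each of the 8 RNA-seq libraries. The series compared memory T helper cells by where they were recovered and by the population they came from. Cells that derive from tissue-resident memory cells are called ex-TRM and those that derive from circulating memory cells ex-Tcirc, and each population was taken as tissue and as circulating cells, which makes 4 RNA groups of 2 libraries. Donor cells were effector Th2 cells of OT-II creERT2 or DO11.10 mice, which carry a transgenic T cell receptor for ovalbumin. They were injected into a vein of recipients given ovalbumin through the nose, which were either BALB/c-nu/nu mice, a strain without a thymus and so with few T cells of its own, or C57BL/6 mice with the Ly5.2 marker. In the first experiment tamoxifen induced Cre recombination and cells were taken at day 49, with circulating ex-TRM cells from blood. In the second, lung TRM and Tcirc cells of DO11.10 origin were moved into naive BALB/c-nu/nu mice, and the cells were taken at day 71 after a new ovalbumin challenge. Populations of 3000 to 50000 cells were sorted by congenic markers and by CD69 protein. All RNA samples carry the same labels, CD4+ T cells of the lung, female, 6 to 10 weeks old and Balb/c host, also the circulating ones. The experiment, donor line and day of a library are not labelled, and a difference between experiments cannot be told apart here from one between groups. The 14 ATAC-seq samples are not analysed here.

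Rgs proteins speed the hydrolysis of GTP by G protein alpha subunits, and so end the signal of receptors such as chemokine and sphingosine phosphate receptors. In lymphocytes they set how strongly a cell answers the cues that hold it in a tissue or draw it out. Rgs1 and Rgs16 damp chemokine responses, Rgs2 acts mainly on the Gq class, and Rgs3 acts on both Gi and Gq. Rgs10 is little more than an Rgs domain that acts on Gi, Rgs14 joins that domain to Ras-binding and G alpha-binding regions, and Rgs19, also called GAIP, acts on Gi.

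Rgs1, Rgs2 and Rgs16 lie on chromosome 1 of GRCm38, Rgs1 at 144244669 to 144249104 and Rgs2 at 143999338 to 144004149, with 241 kb between them, and Rgs16 at 153740353 to 153745468. Rgs3 lies on chromosome 4 at 62559835 to 62703019, Rgs10 on chromosome 7 at 128373621 to 128419506, Rgs14 on chromosome 13 at 55369732 to 55384687 and Rgs19 on chromosome 2 at 181688419 to 181694537. RefSeq places the long noncoding RNA gene Gm52741 within the span of Rgs3 and no gene across the other 6. Promoter windows of 300 bases, 250 before and 50 after a transcription start, were found in RefSeq (GRCm38.p6) for 5 of the 7 genes.

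The windows of Rgs2, Rgs16 and Rgs10 are shown, for Rgs2 and Rgs16 because all tissue libraries lay above all circulating ones and for Rgs10 because it was the 1 gene called within ex-Tcirc cells at a mean of at least 20 FPKM, with capitals marking TGACG, the core of the cyclic AMP response element, and CCAAT, each on either strand. The windows are chr1:144004100-144004399 on the minus strand for Rgs2, chr1:153740103-153740402 on the plus strand for Rgs16 and chr7:128418123-128418422 on the minus strand for Rgs10.
Rgs2: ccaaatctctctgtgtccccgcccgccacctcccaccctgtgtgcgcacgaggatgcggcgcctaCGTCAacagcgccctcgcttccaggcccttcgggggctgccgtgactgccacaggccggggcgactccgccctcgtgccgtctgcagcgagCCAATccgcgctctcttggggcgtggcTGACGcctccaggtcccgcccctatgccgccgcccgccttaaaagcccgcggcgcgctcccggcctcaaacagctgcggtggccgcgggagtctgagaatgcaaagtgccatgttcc
Rgs16: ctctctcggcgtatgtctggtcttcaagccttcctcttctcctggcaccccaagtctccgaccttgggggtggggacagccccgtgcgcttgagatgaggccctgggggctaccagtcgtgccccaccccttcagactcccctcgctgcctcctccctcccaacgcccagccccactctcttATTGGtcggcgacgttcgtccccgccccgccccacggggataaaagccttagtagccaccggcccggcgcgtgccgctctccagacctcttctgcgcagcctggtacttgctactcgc
Rgs10: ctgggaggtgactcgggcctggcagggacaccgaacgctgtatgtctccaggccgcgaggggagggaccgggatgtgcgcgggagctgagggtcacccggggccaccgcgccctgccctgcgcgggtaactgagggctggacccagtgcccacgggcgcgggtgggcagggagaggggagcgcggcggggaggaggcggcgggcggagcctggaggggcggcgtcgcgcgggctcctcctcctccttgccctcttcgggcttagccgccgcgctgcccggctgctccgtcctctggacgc
The Rgs2 window held TGACG at 185 and 67 bases before the start and CCAAT at 94 bases before it. The Rgs16 window held CCAAT at 68 bases before the start and no TGACG, and the Rgs10 window held neither. Of 32851 windows of the same length, 20.8% held TGACG and 37.4% held CCAAT. None of these windows held the AP-1 motif TGANTCA, which 7.81% of all windows held, or the full element TGACGTCA, which 1.79% held. GGGCGG, the GC box, stood in all of them, 4 times in Rgs2 and 2 times each in Rgs16 and Rgs10, against 35.7% of all windows holding it. The GC content was 70% for Rgs2, 66% for Rgs16 and 76% for Rgs10, with a median of 52.7% over all windows. TATAAA, the TATA box, stood in none of the 3 windows, against 13.6% of all, CACCC was found in each, against 57.5% of all, and CANNTG, the E box, in that of Rgs2 alone, against 72.3% of all. Both strands were searched, motifs were chosen after the sequences had been looked at, and a match says nothing of binding.

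The libraries differed widely in depth, which bears on every comparison with circulating cells and also on that between the tissue groups. Circulating ex-TRM replicate 1 listed 917 gene names above 0 and all 7 Rgs genes at 0, and is treated as missing, which leaves 7 libraries and a single one for circulating ex-TRM. Relative to tissue ex-TRM replicate 1, depth was 90.1% in its second library, 24.1% and 57.2% in tissue ex-Tcirc, 25.3% in circulating ex-TRM replicate 2 and 8.61% in circulating ex-Tcirc replicate 1. Circulating ex-Tcirc replicate 2 could not be placed and listed 7042 names above 0, against 12785 in its replicate 1 and 29688 to 37894 in the other 5. All 13 T cell markers checked were above 0 in the 4 tissue libraries and in circulating ex-TRM replicate 2, and 12 and 9 of them in circulating ex-Tcirc replicates 1 and 2. The summed FPKM of 9 myeloid markers was 53.4 to 186 in tissue, 80.9 in circulating ex-TRM replicate 2, and 850.3 and 300.4 in circulating ex-Tcirc, with 6 and 2 of them above 0 in the last pair. Among them Marco was listed at 0 in all 7 libraries, as were Cd79a and Cd79b among the 8 B cell markers. The 6 alveolar epithelial markers summed to 4.107 to 73.9 FPKM in tissue, 34.0 in circulating ex-TRM replicate 2, and 549 and 0 in circulating ex-Tcirc. The part of such cells in the values below was not tested, and fewer expressing cells and less RNA per cell cannot be told apart in these bulk samples.

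**Figure D1:**
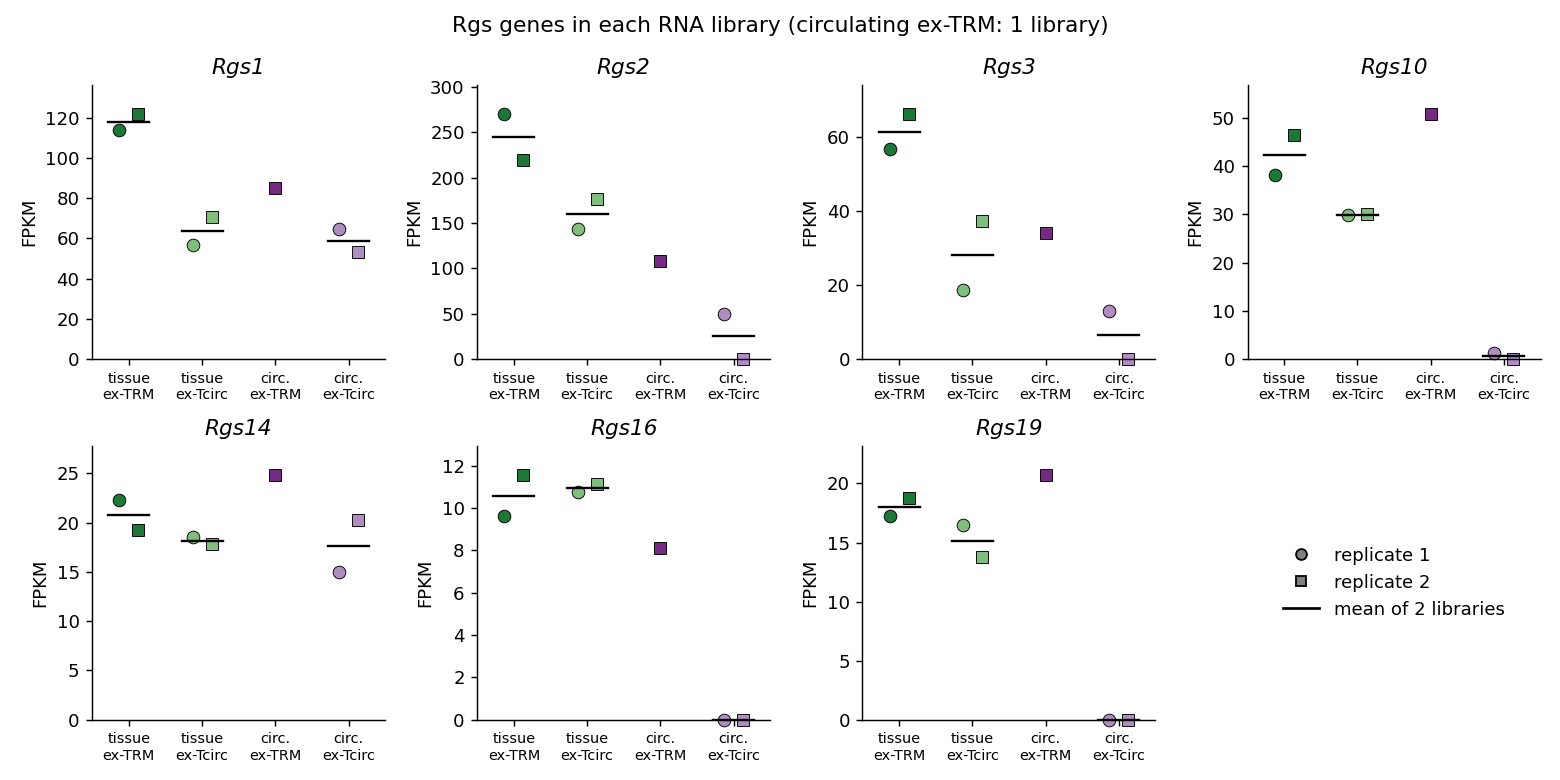
FPKM of each Rgs gene (vertical axis, linear, from 0) by group (horizontal axis), with 1 point per library, circles for replicate 1, squares for replicate 2 and a bar at the mean of 2 libraries. Rgs2 and Rgs16 lie higher in all 4 tissue libraries than in the 3 circulating ones, Rgs1 and Rgs14 are above 0 in all 7, and Rgs16 and Rgs19 are listed at 0 in each circulating ex-Tcirc library.

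Rgs1 and Rgs2 were the most abundant of the 7 genes per length, and their groups stood in different orders. Rgs1 was at 114 and 122 FPKM in tissue ex-TRM cells, 56.7 and 70.8 in tissue ex-Tcirc cells, 84.8 in circulating ex-TRM cells and 64.5 and 53.1 in circulating ex-Tcirc cells. The 2 tissue ex-TRM libraries were thus highest, the single circulating ex-TRM library came next, and the 2 ex-Tcirc groups overlapped. Rgs2 was at 269.6 and 219 FPKM in tissue ex-TRM cells, 143 and 177 in tissue ex-Tcirc cells, 108 in circulating ex-TRM cells and 49.9 and 0 in circulating ex-Tcirc cells. Its 4 groups did not overlap and stood in that order, with every tissue library above every circulating one.

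Averaged over both origins, the log2 difference between tissue and circulating cells was 0.29 ± 0.21 for Rgs1 (± SE; limma, adjusted p = 0.608) and 2.83 ± 1.55 for Rgs2 (limma, adjusted p = 0.459). Of the 4 Rgs genes with a mean of at least 20 FPKM, none passed, where limma called 7.34% of 2656 genes. The large SE of Rgs2 came from its 2 circulating ex-Tcirc libraries, at 49.9 FPKM and at 0. Without replicate 2 of that group Rgs2 passed with 1.41 ± 0.19 (limma, adjusted p = 0.00443), and without replicate 1 with 4.24 ± 0.18 (limma, adjusted p = 0.00045). In those fits 42.2% and 69.5% of all genes passed, so these calls do not set Rgs2 apart. Within ex-Tcirc cells the log2 difference of Rgs2 was 4.49 ± 1.96 (limma, adjusted p = 0.286), and it was 1.65 without circulating replicate 2 (limma, adjusted p = 0.00792; 42.9% of all genes passed) and 7.32 without replicate 1 (limma, adjusted p = 0.000111; 73.5% of all genes passed). In 2 of the 7 Rgs genes, Rgs2 and Rgs16, all 4 tissue libraries lay above all 3 circulating ones, and 13.1% of all genes with a mean of at least 5 FPKM did so.

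The ratio of Rgs2 to Rgs1 within a library does not depend on how libraries are scaled. It was 2.37 and 1.80 in tissue ex-TRM cells, 2.53 and 2.49 in tissue ex-Tcirc cells, 1.27 in circulating ex-TRM cells and 0.773 and 0 in circulating ex-Tcirc cells. Rgs2 thus exceeded Rgs1 in the 4 tissue libraries and in circulating ex-TRM, and Rgs1 exceeded Rgs2 in both circulating ex-Tcirc libraries. This ratio was singled out after its values had been seen and was not tested. As shares of the summed FPKM of the 7 genes, Rgs2 took 43.6% to 51.1% in tissue, 32.6% in circulating ex-TRM and 34.7% and 0% in circulating ex-Tcirc. Rgs1 took 19.3% to 24.2% in tissue, 25.6% in circulating ex-TRM and 44.9% and 72.4% in circulating ex-Tcirc, where the sum of the 7 genes was lowest, at 143.7 and 73.4 FPKM beside 294.3 to 527.6 FPKM in tissue.

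**Figure D2:**
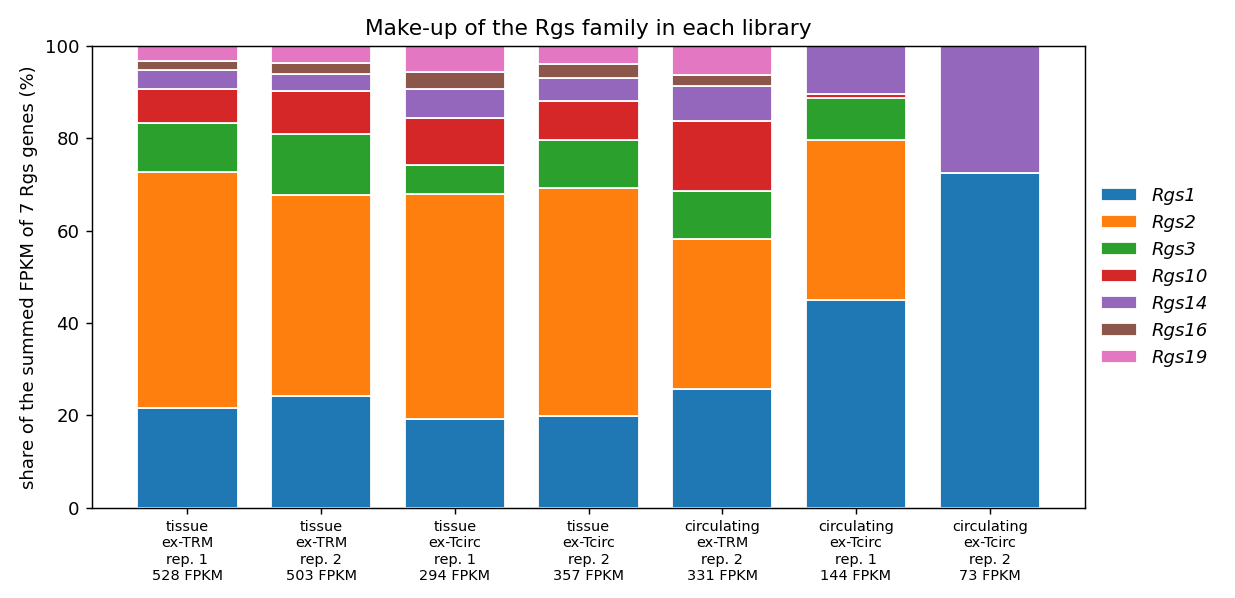
Share of each Rgs gene in the summed FPKM of the 7 genes (vertical axis, percent) in each of 7 libraries (horizontal axis, with the sum in FPKM under each bar). Rgs2 is the largest share in the tissue libraries at 43.6% to 51.1%, and Rgs1 the largest in the circulating ex-Tcirc libraries at 44.9% and 72.4%.

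Rgs3, which acts on both Gi and Gq, was at 56.6 and 66.0 FPKM in tissue ex-TRM cells, 18.6 and 37.3 in tissue ex-Tcirc cells, 33.9 in circulating ex-TRM cells and 13.1 and 0 in circulating ex-Tcirc cells. The tissue ex-TRM libraries were highest, circulating ex-TRM lay within the range of tissue ex-Tcirc, and circulating ex-Tcirc was lowest. Tissue against circulating, its log2 difference was 1.85 ± 1.10 (± SE; limma, adjusted p = 0.498). Without circulating ex-Tcirc replicate 1 it was 2.80 ± 0.32 (limma, adjusted p = 0.00183), and without replicate 2 it was 0.90 ± 0.30 (limma, adjusted p = 0.067), so that 1 library decides whether it passes. In those fits 69.5% and 42.2% of all genes passed. Within ex-Tcirc cells it was 2.87 ± 1.40 (limma, adjusted p = 0.338). There it was 4.77 ± 0.46 without circulating replicate 1 (limma, adjusted p = 0.000796; 73.5% of all genes passed) and 0.96 ± 0.43 without replicate 2 (limma, adjusted p = 0.129; 42.9% of all genes passed).

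Rgs10, the small Gi-directed member, had a clear gap between the circulating library of ex-TRM origin and those of ex-Tcirc origin. It was at 38.3 and 46.6 FPKM in tissue ex-TRM cells, 29.8 and 30.1 in tissue ex-Tcirc cells, 50.8 in circulating ex-TRM cells and 1.24 and 0 in circulating ex-Tcirc cells. Its highest and its lowest values both came from circulating cells. Within ex-Tcirc cells Rgs10 was higher in tissue, by 4.37 ± 0.56 on the log2 scale (± SE; limma, adjusted p = 0.0161), the 1 call among 4 Rgs genes tested where 9.11% of all genes were called. Within ex-TRM cells the difference was -0.26 ± 0.69 (limma, adjusted p = 1), and 0 of 4 Rgs genes and 0% of all genes were called there, with 87 of 2656 genes at an unadjusted p under 0.05. The test of one difference against the other gave -4.63 ± 0.89 (limma, adjusted p = 0.0918), and 0 of 4 Rgs genes passed it where 0.151% of all genes did. Over genes with a mean of at least 5 FPKM it passed at an adjusted p of 0.0176 in limma, where 22.1% of all genes did.

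The difference of Rgs10 within ex-Tcirc cells was 4.95 without circulating ex-Tcirc replicate 1 and 3.79 without replicate 2. Without any 1 of the 4 tissue libraries this difference was 4.36 to 4.38, and leaving out a tissue ex-TRM library cannot change it. Its call was lost in each of those fits, in which limma called 0 genes of any kind, with adjusted p of 0.139 and 0.131 without tissue ex-TRM replicate 1 and 2 and 0.157 and 0.175 without tissue ex-Tcirc replicate 1 and 2. Tissue against circulating, Rgs10 had a log2 difference of 2.05 ± 0.44 (limma, adjusted p = 0.0904), and it passed without circulating ex-Tcirc replicate 1 (limma, adjusted p = 0.000495) or replicate 2 (limma, adjusted p = 0.00154), where 69.5% and 42.2% of all genes did.

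Rgs16, which damps chemokine responses, and Rgs19, the Gi-directed member also called GAIP, lay in a narrow range in tissue and were listed at 0 in each circulating ex-Tcirc library. Rgs16 was at 9.61 and 11.6 FPKM in tissue ex-TRM cells, 10.8 and 11.2 in tissue ex-Tcirc cells, 8.10 in circulating ex-TRM cells and 0 and 0 in circulating ex-Tcirc cells. Its tissue groups overlapped, and circulating ex-TRM lay just under them. Rgs19 was at 17.2 and 18.8 FPKM in tissue ex-TRM cells, 16.5 and 13.8 in tissue ex-Tcirc cells, 20.7 in circulating ex-TRM cells and 0 and 0 in circulating ex-Tcirc cells. For Rgs19 the circulating ex-TRM library was the highest of all.

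Both genes lay under a mean of 20 FPKM. They were tested over 9096 genes with a mean of at least 5 FPKM, where Rgs10 passed as well. A gene listed at 0 in circulating ex-Tcirc cells, as both were, meets that minimum only through the other groups. Among such genes the minimum thus selects for a difference from those cells. Tissue against circulating, Rgs16 differed by 1.96 ± 0.19 on the log2 scale (± SE; limma, adjusted p = 0.00552) and Rgs19 by 1.91 ± 0.18 (limma, adjusted p = 0.00548). In that fit 3 of 7 Rgs genes and 24.8% of all genes passed. Within ex-Tcirc cells the same 3 of 7 passed, and 29% of all genes did, with 3.58 ± 0.24 for Rgs16 and 4.01 ± 0.22 for Rgs19 (limma, adjusted p = 0.0011 for each). Genes listed at 0 in each circulating ex-Tcirc library numbered 2496, or 27.4% of those tested, and 82.2% of them passed for tissue against circulating and 91.1% within ex-Tcirc, so a call is what most such genes received. In 5 of the 7 Rgs genes, Rgs2, Rgs3, Rgs10, Rgs16 and Rgs19, both tissue ex-Tcirc libraries lay above both circulating ones, and 42.2% of all genes did so. Without tissue ex-TRM replicate 1 the averaged differences were about as large, at 2.02 for Rgs16 and 1.94 for Rgs19, but missed the threshold (limma, adjusted p = 0.0578 for each). The same held without replicate 2, at 1.90 for Rgs16 and 1.88 for Rgs19 (limma, adjusted p = 0.0569 for each).

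Rgs14, the member with added Ras-binding and G alpha-binding regions, varied least of the 7 between its lowest and its highest library. It was at 22.3 and 19.2 FPKM in tissue ex-TRM cells, 18.6 and 17.8 in tissue ex-Tcirc cells, 24.8 in circulating ex-TRM cells and 15.0 and 20.3 in circulating ex-Tcirc cells. Tissue and circulating libraries overlapped, and the highest tissue library was 1.25 times the lowest. Its log2 difference was -0.10 ± 0.24 between tissue and circulating cells (± SE; limma, adjusted p = 0.841, mean of at least 5 FPKM), and 0.06 ± 0.30 within ex-Tcirc cells (limma, adjusted p = 0.906), and with median-of-ratios scaling the first turned to 0.09.

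Zeros in circulating ex-Tcirc have to be read against how often other genes at the same level were missed. Of protein-coding genes within 1.2 times the tissue mean of Rgs16, 51.8% and 74.8% were listed at 0 in circulating ex-Tcirc replicates 1 and 2, and of those at the level of Rgs19, 42.4% and 72.9%. At the level of Rgs14, itself above 0 in both, the shares were 36.0% and 70.0%. A listing at 0 was thus common in replicate 1, and the more frequent value in replicate 2, at the levels of Rgs14, Rgs16 and Rgs19. At the level of Rgs10 the shares were 15.4% and 58.9%, and at the level of Rgs3 they were 10.0% and 53.2%. At the level of Rgs2, 1 of 44 genes was listed at 0 in replicate 1 and 10 of 44, or 22.7%, in replicate 2, where Rgs2 itself was. At the level of Rgs1, above 0 in both, 5.30% and 44.4% were. In circulating ex-TRM replicate 2 the shares were 0% to 2.41% for the 7 genes.

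**Figure D3:**
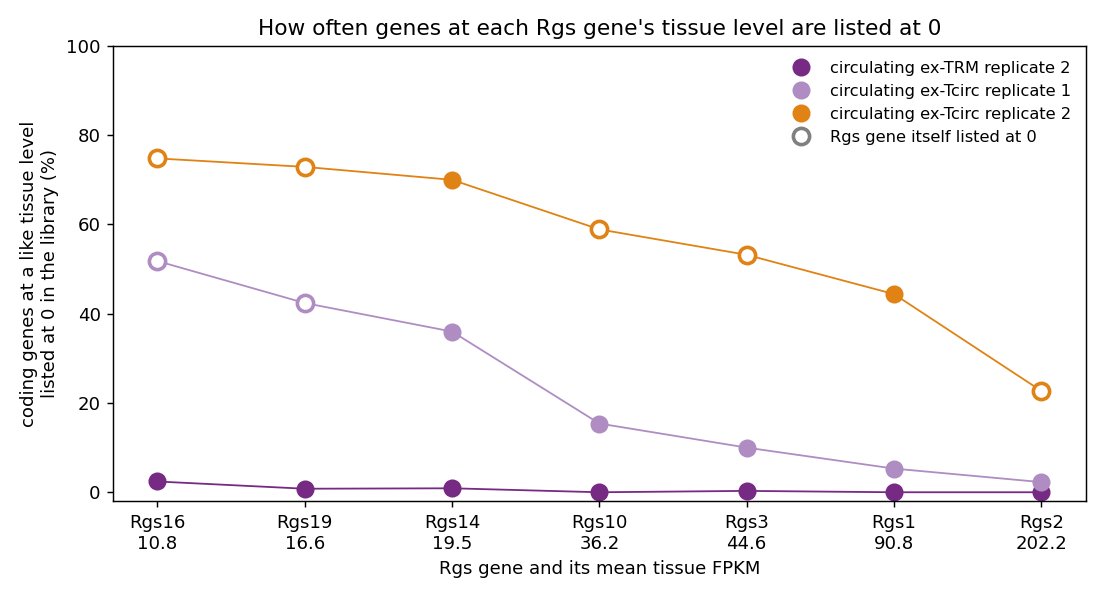
Share of protein-coding genes listed at 0 in each of the 3 circulating libraries (vertical axis, percent) among genes within 1.2 times the mean tissue FPKM of each Rgs gene (horizontal axis, ordered by that mean). Open points mark a library in which the Rgs gene itself is listed at 0, and the share reaches 74.8% at the level of Rgs16 and 22.7% at that of Rgs2.

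Between tissue groups, the comparison of ex-TRM with ex-Tcirc cells in the same location, most Rgs genes lay higher in ex-TRM and none passed. Rgs1 averaged 118 ± 5.42 FPKM in tissue ex-TRM cells and 63.7 ± 9.93 FPKM in tissue ex-Tcirc cells (SD, n = 2 each), a ratio of 1.85. Rgs2 averaged 244 ± 35.6 FPKM in tissue ex-TRM cells and 159.9 ± 23.4 FPKM in tissue ex-Tcirc cells, a ratio of 1.53. The ratio was 2.2 for Rgs3, which averaged 61.3 ± 6.64 FPKM in tissue ex-TRM cells and 27.9 ± 13.2 FPKM in tissue ex-Tcirc cells. For Rgs10, Rgs19 and Rgs14 the ratios were 1.42, 1.19 and 1.14, and for Rgs16, whose groups overlapped, 0.966.

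In 6 of the 7 Rgs genes, all but Rgs16, both tissue ex-TRM libraries lay above both tissue ex-Tcirc libraries, and of all genes with a mean of at least 5 FPKM 33% did so. Both tissue ex-TRM libraries were also the deeper ones, at 100% and 90.1% against 24.1% and 57.2% in tissue ex-Tcirc. The part of depth in these differences was not tested. Of the 4 Rgs genes tested 0 passed, where 0% of 2656 genes were called by limma and 7 had an unadjusted p under 0.05. Rgs1 was one of those, at 0.88 ± 0.27 on the log2 scale (± SE; limma, adjusted p = 1), and the median over all genes tested was 0.17. Fitted to the 4 tissue libraries alone, Rgs1 had an SE of 0.21, Rgs3 a difference of 1.18 ± 0.35, Rgs2 of 0.61 ± 0.24 and Rgs10 of 0.48 ± 0.18, each at an adjusted p (limma) of 0.488. Of 2818 genes in that fit 0 passed and 215 had an unadjusted p under 0.05. Tissue ex-Tcirc replicate 1, the shallower of its pair, also had the highest summed B cell markers in tissue, at 395 FPKM against 22.9 to 64.9 in the other 3, and without it the Rgs3 difference was 0.70 and the Rgs1 difference 0.73.

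**Figure D4:**
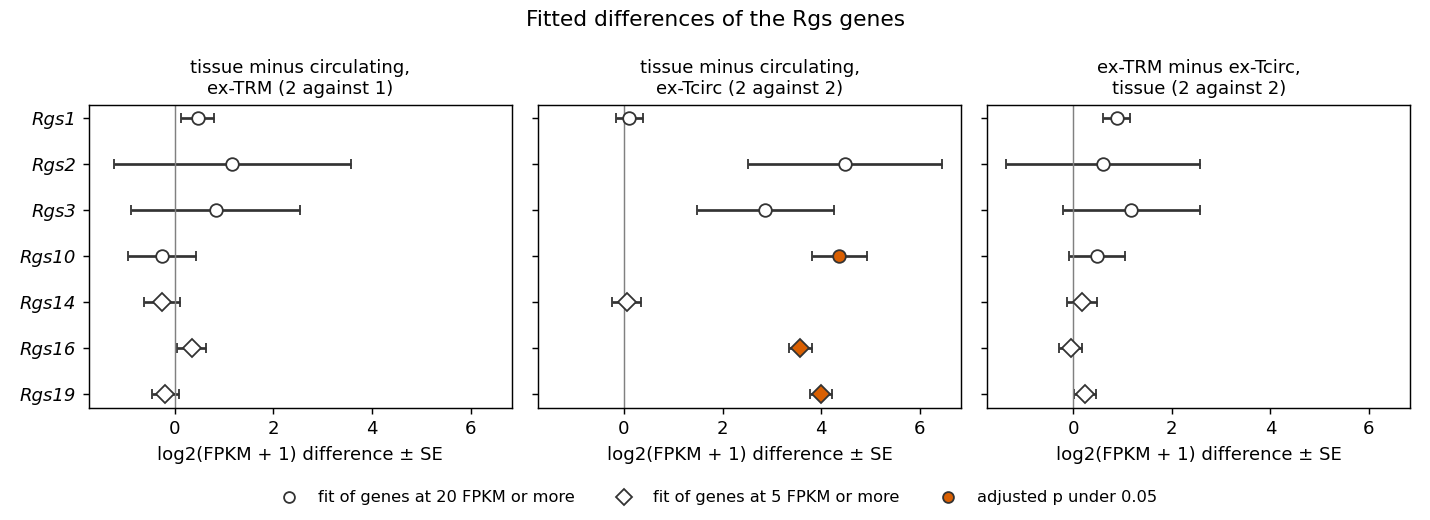
Fitted log2(FPKM + 1) difference with its SE (horizontal axis) of each Rgs gene (vertical axis) for tissue minus circulating cells within ex-TRM and within ex-Tcirc, and for ex-TRM minus ex-Tcirc cells in tissue. Filled points have an adjusted p (limma) under 0.05, which Rgs10, Rgs16 and Rgs19 reached within ex-Tcirc, and diamonds mark genes taken from the fit with a mean of at least 5 FPKM.

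Within ex-TRM cells, tissue against the single circulating library, Rgs2 had a ratio of 2.27, Rgs3 of 1.81, Rgs1 of 1.39 and Rgs16 of 1.31. Rgs10, Rgs14 and Rgs19 had ratios of 0.835, 0.836 and 0.870, with both tissue ex-TRM libraries under the circulating one. Both tissue libraries lay above the circulating one in 4 of 7 Rgs genes and below it in 3, against 38.6% and 47.2% of genes with a mean of at least 5 FPKM. The lone library was assumed to vary like the other groups. None of the 7 passed (over 9096 genes limma also called 0%, with 358 at an unadjusted p under 0.05), and the log2 difference of Rgs2 was 1.17 ± 2.40 (± SE; limma, adjusted p = 1). With median-of-ratios scaling, which moved the median difference over all genes to 0.23, against -0.06 as deposited, the log2 differences of Rgs10, Rgs14 and Rgs19 turned to 0.03, 0.04 and 0.09.

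The test of the location difference by origin called Rgs16 and Rgs19 over genes with a mean of at least 5 FPKM. Both meet that minimum only through groups other than circulating ex-Tcirc, where both were listed at 0. The test sets those zeros beside a single circulating ex-TRM library. At the level of Rgs16, 51.8% and 74.8% of coding genes were listed at 0 in circulating ex-Tcirc, against 2.41% in circulating ex-TRM. For Rgs19 these shares were 42.4%, 72.9% and 0.789%. The difference within ex-TRM minus that within ex-Tcirc was -3.24 ± 0.37 for Rgs16 (± SE; limma, adjusted p = 0.00859) and -4.20 ± 0.35 for Rgs19 (limma, adjusted p = 0.00796). With Rgs10, 3 of 7 Rgs genes passed in this fit and 22.1% of all genes did, as did 78.7% of the genes listed at 0 in each circulating ex-Tcirc library. Without tissue ex-TRM replicate 1 the values were about as large, at -3.12 for Rgs16 and -4.14 for Rgs19, but missed the threshold (limma, adjusted p = 0.074 and 0.0738). Without replicate 2 they were -3.36 for Rgs16 and -4.26 for Rgs19 and missed it too (limma, adjusted p = 0.0724 for each). For Rgs1 the same term was 0.36 ± 0.43 (limma, adjusted p = 0.841).

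The other Rgs family genes were near the limit of what these libraries show. Of 14 further family members, none had a mean of 20 FPKM over the 7 libraries, and Rgs5, Rgs13 and Rgs21 were listed at 0 in every library. The highest was Rgs6, with a mean of 3.79 FPKM and 11.0 FPKM in tissue ex-Tcirc replicate 1, followed by Rgs7 with a mean of 1.67 FPKM and Rgs12 with 1.63 FPKM.

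G alpha genes, among them those of the Gi and Gq classes on which these Rgs proteins act, showed no call for location. Of 13 G alpha genes, 4 had a mean of at least 20 FPKM and 0 passed for tissue against circulating. Limma called 7.34% of all genes there, so 0 of 4 is near that share. The median log2 difference of the 4 was 0.11 against 0.43 over all genes. Gnai2, the main Gi subunit of lymphocytes and a target of most of these Rgs proteins, was at 113 and 122 FPKM in tissue ex-TRM cells, 108 and 121 in tissue ex-Tcirc cells, 230.3 in circulating ex-TRM cells and 230.6 and 0 in circulating ex-Tcirc cells. Apart from the listed 0, the circulating libraries were thus the higher ones for Gnai2. With that 0 in the fit, the log2 difference between tissue and circulating cells was 0.98 ± 2.14 (± SE; limma, adjusted p = 0.817), positive and within its error. Gna13, another alpha subunit, ranged over 29.9 to 64.2 FPKM in tissue cells, with 61.1, 44.0 and 44.7 FPKM in circulating ones (limma, adjusted p = 0.888), and Gnas, the stimulatory subunit, differed by 0.10 ± 0.87 on the log2 scale (± SE; limma, adjusted p = 0.952).

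Beta and gamma subunits, receptor kinases and arrestins had no call either, with few genes tested and 7.34% of all genes called. Of 15 beta and gamma genes 2 were tested and 0 passed, Gnb1 with a log2 difference of 1.18 ± 1.81 (limma, adjusted p = 0.778) and Gnb2 with -0.59 ± 0.50 (limma, adjusted p = 0.665). Of 7 receptor kinase and arrestin genes in the files 3 were tested and 0 passed. Grk6, a kinase that marks active receptors for arrestin, was at 40.5 and 43.4 FPKM in tissue ex-TRM cells, 25.4 and 38.9 in tissue ex-Tcirc cells, 65.0 in circulating ex-TRM cells and 85.5 and 80.0 in circulating ex-Tcirc cells. All tissue libraries lay below all circulating ones, as in 6.11% of genes with a mean of at least 5 FPKM, and Grk6 did not pass (log2 difference -0.99 ± 0.26, SE; limma, adjusted p = 0.142). Arrb2, beta-arrestin 2, had a log2 difference of 0.39 ± 0.29 (limma, adjusted p = 0.596) and Grk2 of 1.04 ± 1.71 (limma, adjusted p = 0.782).

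Of 30 chemokine and egress receptor genes in the files 7 were tested, 2 passed higher in tissue and 0 lower, where limma called 7.34% of all genes, and the median log2 difference was 1.19 beside 0.43 over all genes. The 2 were Ccr8, a receptor of Th2 cells, with 4.78 ± 0.36 (± SE; limma, adjusted p = 0.0239) and Cxcr6, a receptor of resident T cells, with 3.5 ± 0.30 (limma, adjusted p = 0.0239), and both shared with Rgs16 and Rgs19 a value of 0 in each circulating ex-Tcirc library. Both calls were lost with the replicate number as a block and without any 1 tissue library, where limma called 0 genes of any kind. Some receptors, picked out after their values had been seen, had the opposite pattern in full or in part. S1pr4, a sphingosine phosphate receptor, ranged over 7.58 to 10.37 FPKM in tissue. It was at 19.14 FPKM in circulating ex-TRM cells and 35.32 and 27.97 in circulating ex-Tcirc cells, with a mean under 20 FPKM. All tissue libraries lay below all circulating ones in 6.11% of genes with a mean of at least 5 FPKM. Gpr183 is an oxysterol receptor, and S1pr1 the sphingosine phosphate receptor that T cells use to leave tissue. Both had this pattern apart from a listed 0 in circulating ex-Tcirc replicate 2, and Gpr183 did not pass. Gpr183 ranged over 17.7 to 26.1 FPKM in tissue, with 80.3 in circulating ex-TRM cells and 85.2 and 0 in circulating ex-Tcirc cells. S1pr1 ranged over 2.99 to 5.34 FPKM in tissue, with 59.5 in circulating ex-TRM cells and 46.4 and 0 in circulating ex-Tcirc cells, and its mean lay under 20 FPKM. The 3 most abundant receptor genes did not pass, namely Cxcr4 (1.73 ± 1.87, limma, adjusted p = 0.725), P2ry10 (-0.29 ± 0.22, limma, adjusted p = 0.616) and Ccr2 (0.65 ± 0.29, limma, adjusted p = 0.375).

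Rgs1 and Rgs2 are also known as genes induced soon after lymphocyte activation, as immediate early genes are. The summed FPKM of 20 such genes was 4187 and 3673 in tissue ex-TRM cells, 2562 and 3576 in tissue ex-Tcirc cells, 2808 in circulating ex-TRM cells and 2768 and 2775 in circulating ex-Tcirc cells. All 20 were above 0 in the 4 tissue libraries and in circulating ex-TRM, and 19 and 14 of them in circulating ex-Tcirc. Tissue ex-TRM libraries were the highest for this sum, as they were for Rgs1, Rgs2 and Rgs3, and the part of it in those values was not tested. Of 17 tested 0 passed for location, where limma called 7.34% of all genes, with a median log2 difference of 0.27 beside 0.43. For origin within tissue 0 passed, where 0% of all genes were called. There 16 of 17 were positive, beside 1795 of 2656 over all genes, with a median of 0.42 beside 0.17. The most abundant were Fos, Fosb and Junb, with location differences of 0.59 ± 0.23, 0.68 ± 0.37 and 0.28 ± 0.18 (± SE; limma, adjusted p = 0.311, 0.451 and 0.54).

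The genes whose pattern over the 7 libraries was most like that of Rgs1 were Crebbp, a transcriptional coactivator, Btg2, an antiproliferative gene, and Malt1, a signalling protease downstream of antigen receptors. Their root mean square differences from Rgs1, on log2(FPKM + 1) centred on each gene's mean, were 0.168, 0.174 and 0.176, with a median of 0.602 over 1084 candidate genes with a mean of at least 20 FPKM that were above 0 in all 7 libraries, leaving out predicted gene and pseudogene symbols. Malt1 was at 191 and 173 FPKM in tissue ex-TRM cells, 73.3 and 113 in tissue ex-Tcirc cells, 113 in circulating ex-TRM cells and 78.3 and 62.9 in circulating ex-Tcirc cells. Nearest to Rgs14 were Acadl, a mitochondrial fatty acid oxidation enzyme, Trbc1, a T cell receptor beta constant segment, and Laptm5, a lysosomal membrane protein, at 0.118, 0.125 and 0.138, with a median of 0.503 over 1085 candidates. The other 5 Rgs genes had a 0 in circulating ex-Tcirc and were not matched.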

How the data were processed

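RNA was measured in 8 libraries of sorted mouse CD4+ T cells, in 4 groups of 2 taken from the sample titles. Per the labels' protocols, strand-specific libraries were read as pairs. Per the file headers, each deposited file gives FPKM by gene name. StringTie 3.0.1, SAMtools 1.15, HISAT2 2.2.1 and Trim Galore 0.6.7 are among the tools in the submitters' processing notes, which name the build mm10 and no roles. Which annotation, strand setting and filters were used is not given in the sources used here. Values of a repeated gene name were summed, and each of the 7 Rgs genes had 1 row per file.

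The files hold no read totals. Relative depth was read from the ratio to tissue ex-TRM replicate 1 at which genes under 1 FPKM pile up, and a ratio was used where at least 10 genes shared it. A shallow library lists many expressed genes at 0, so a 0 is not read as absence, and no interval or floor was given.

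Circulating ex-TRM replicate 1 was treated as missing. The group means of the other 7 libraries were fitted on log2(FPKM + 1) with limma 3.58.1 (R 4.3.3) and an intensity trend, over 2656 genes with a mean of at least 20 FPKM. Tests were two-sided with Benjamini-Hochberg adjustment over all genes tested and a threshold of 0.05. Rgs14, Rgs16 and Rgs19 lay under that minimum and were taken from the same fit over 9096 genes with a mean of at least 5 FPKM. Against a group listed at 0 the log2 difference follows the pseudocount, and no fold is given. A pair of zeros enters the fit as replicates without spread, and so makes the SE smaller. Scripts were tested on simulated data. The Rgs genes, the lists and the tests were chosen with earlier results of these data known. Named genes were the 7 Rgs genes, the list genes that passed for location and the 3 most abundant genes of each list. The labels do not tie the libraries to animals, so a p-value reflects spread between libraries alone, possibly technical spread.

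Alternatives were a pseudocount of 0.1, a minimum of 5 FPKM, no minimum, only genes above 0 in every one of the 7 libraries, scaling by median-of-ratios, all 8 libraries, the replicate number as a block, the 4 tissue libraries alone, and leaving out each library. Gene positions and promoter sequences are from RefSeq on GRCm38.p6, the assembly that mm10 names.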

Additional observations from a re-analysis of the deposited data

Results flagged for a closer look

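The location difference of Rgs16 differed between origins by -3.24 on the log2 scale and that of Rgs19 by -4.20, within ex-TRM minus within ex-Tcirc, by a test of the difference itself in limma over genes with a mean of at least 5 FPKM (adjusted p = 0.00859 and 0.00796). Both values rest on zeros in both circulating ex-Tcirc libraries, beside 8.10 FPKM of Rgs16 and 20.7 FPKM of Rgs19 in the single circulating ex-TRM library, and 78.7% of the genes with such a pair of zeros were called in the same test.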

How the results depend on the processing

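Location averaged over origins, location within ex-Tcirc, location within ex-TRM, origin within tissue and the interaction are meant by the 5 comparisons. Rgs genes called numbered 0, 1, 0, 0 and 0 of 4 tested, beside 7.34%, 9.11%, 0%, 0% and 0.151% of 2656 genes. With a minimum of 5 FPKM or none, 3 of 7 were called for averaged location, within ex-Tcirc and for the interaction. Beside them stood 24.8%, 29% and 22.1% of 9096 genes with that minimum, and 10.1%, 11.6% and 7.35% of 43037 genes without. Within ex-Tcirc 0 were called with a pseudocount of 0.1, all 8 libraries or the replicate block, and 0 with genes above 0 in all 7 libraries, a filter that leaves Rgs10 out and Rgs1 as the 1 Rgs gene tested. Leaving out each library gave 0 to 3, 0 to 3, 0 to 0, 0 to 0 and 0 to 3. Comparisons that need circulating ex-TRM have no value without its replicate 2.

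All genes called numbered 195, 242, 0, 0 and 4, and leaving out each library gave 0 to 1860, 0 to 1969, 0 to 60, 0 to 0 and 0 to 1704. For averaged location they were 2259 with a minimum of 5 FPKM, 4345 with none, 1 above 0 in all libraries, 69 with median-of-ratios factors, 0 over 8 libraries and 0 with the block. Within ex-Tcirc they were 2640, 4981 and 13 in the first 3 of these settings, 0 over 8 libraries and 158 with the block. Without a minimum 854 were called within ex-TRM and 584 for origin within tissue. For the interaction they were 179 with a pseudocount of 0.1, 2013 and 3165 with a minimum of 5 FPKM and none, and 0 above 0 in all libraries, with median-of-ratios factors, over 8 libraries and with the block. Median-of-ratios factors moved the median log2 difference for averaged location to 0.63, against 0.43 as deposited.

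Of 451 recomputed Rgs values, 396 kept direction and side of the threshold, 23 lost and 16 gained a call, and 16 changed sign, none of them a called value. Changing which genes are tested, or leaving out a library outside a comparison, cannot change a log2 difference, so some directions were fixed in advance. Median-of-ratios factors turned Rgs14 to 0.09 for averaged location, and Rgs10, Rgs14 and Rgs19 to 0.03, 0.04 and 0.09 within ex-TRM. All 8 libraries turned Rgs14 to 1.08 for averaged location, Rgs10, Rgs14 and Rgs19 to 2.59, 2.09 and 2.03 within ex-TRM, and Rgs2, Rgs3 and Rgs14 to 0.06, 0.53 and 2.04 for the interaction. Leaving out each library gave -0.20 to 0.01 for Rgs14 in averaged location, -0.05 to 0.27 for Rgs1 and -0.15 to 0.26 for Rgs14 within ex-Tcirc, and -0.17 to 0.07 for Rgs16 in origin within tissue. The cause of these changes was not tested. The labels do not say whether replicate numbers pair the libraries. Differences between replicate 1 and 2 correlated at 0.007, -0.04 and -0.094 between groups, which cannot settle it with 1 difference per group. With the replicate block Rgs10 within ex-Tcirc had limma adjusted p = 0.0651, and Rgs16 and Rgs19 in the interaction 0.0525 and 0.0513.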
